A study of Mus musculus with 22 samples.

Results

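The chromatin of 10 genes of iron uptake, transport and storage (*Tfrc*, *Tfr2*, *Steap3*, *Slc11a2*, *Slc25a37*, *Slc40a1*, *Fth1*, *Ftl1*, *Hmox1*, and *Ireb2*) was followed during erythroid differentiation of mouse G1ER (G1E-ER4) cells. The genes were chosen by name, 10 of 21866 protein-coding genes of the annotation, and each was examined over its body plus 20 kb on each side. The data were lists of ChIP-seq peaks, 10 for H3K4me3, a histone mark of active promoters, and 10 for H3K27ac, a mark of active promoters and enhancers. Each mark had 2 replicates before β-estradiol (0 h) and 2 at 2, 6, 12, and 24 h after it. CTCF, a DNA-binding protein found at loop anchors, had 1 list each at 0 and 24 h.

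All groups shared the same background. G1ER cells lack their own *Gata1* and carry GATA1 fused to a hormone-binding domain of the estrogen receptor, so that β-estradiol switches GATA1 on, and they were grown with SCF and EPO throughout. They are a single line, no group was kept without β-estradiol for the same hours, and time in culture and GATA1 activity cannot be told apart. The line was checked by H3K4me3 at marker start sites. Of 10 erythroid markers, 6 had a peak in all 10 lists and only *Tal1* had none, and all 18 markers of T cells, B cells, macrophages, neutrophils, liver, and fibroblasts had none in any list. H3K4me3 lists held 12925 to 14452 peaks and H3K27ac lists 17247 to 18333. The lists give no read counts, so the depth of each library is unknown and a missing peak does not show that the mark was absent.

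Red cell precursors take up iron bound to transferrin, reduce it in endosomes, move it into the cytosol and on into mitochondria for heme, and store the excess in ferritin. *Tfrc* encodes the main transferrin receptor and *Tfr2* a second receptor that senses iron-loaded transferrin. *Steap3* encodes the endosomal ferrireductase, *Slc11a2* the iron transporter DMT1, and *Slc25a37* mitoferrin, which brings iron into mitochondria. *Slc40a1* encodes the iron exporter ferroportin, *Fth1* and *Ftl1* the heavy and light chains of ferritin, and *Hmox1* heme oxygenase, which frees iron from heme. *Ireb2* encodes IRP2, an RNA-binding protein that adjusts the transferrin receptor and ferritin messages to the iron supply.

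All 10 genes carried H3K4me3 at a start site in all 10 lists. At 24 h against 0 h none of their own start site regions was called in the main tests of either mark, although 1 at *Steap3* and 1 at *Ireb2* were called when a list was left out. H3K27ac accompanied H3K4me3 in all 10 lists at 6 genes (*Tfr2*, *Slc25a37*, *Slc40a1*, *Ftl1*, *Hmox1*, and *Ireb2*) and in at most 2 lists at *Tfrc*, *Fth1*, *Steap3*, and *Slc11a2*. The changes that were called lay far from the start sites: H3K27ac grew over an intron of *Steap3*, an H3K27ac region appeared over the 3′ part of *Slc11a2*, and a small H3K4me3 region upstream of *Fth1* was lost. In all, the windows held 24 of 16244 H3K4me3 regions and 34 of 24299 H3K27ac regions, a region being the union of touching peaks over the 10 lists of a mark.

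**Figure D1:**
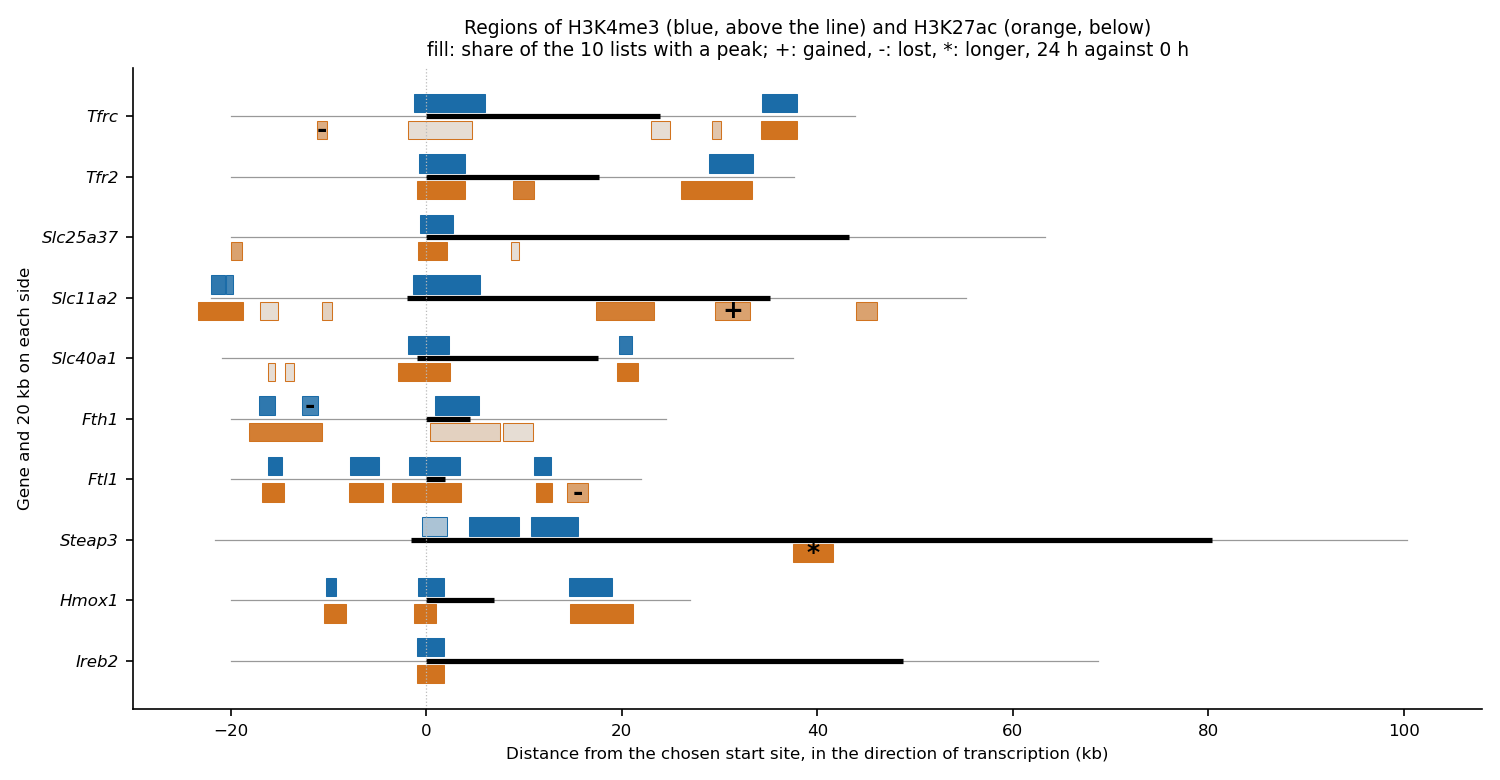
Map of the 10 windows. The x axis gives the distance from the chosen start site in kb, in the direction of transcription, thick black lines are gene bodies, and boxes are H3K4me3 regions (blue, above) and H3K27ac regions (orange, below), filled more strongly the more of the 10 lists had a peak. The only box with the longer mark (*) is the H3K27ac region in *Steap3*, 37.5 to 41.6 kb downstream, and the only gained box (+) is in *Slc11a2*.

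Changes in length were tested for each region with limma on log2(covered bp + 200), over all regions that 2 or more lists had a peak in. Of the 24 H3K4me3 regions in the windows, 0 were called longer at 24 h (0.471% of all 14862 regions tested) and 1 was called shorter (1.11%), with 5 at an unadjusted p under 0.05. Of 27 H3K27ac regions tested, 2 were called longer (3.3% of all 21011) and 0 shorter (3.02%), with 5 at an unadjusted p under 0.05. With the 0 and 24 h lists alone the split was the other way, with 1 called longer and 2 shorter. The rank of the authors' peak score within its list was tested for regions with a peak in all 10 lists. For H3K4me3, limma called 0 of 18 regions higher (0.417% of all 11506) and 0 lower (0.521%), with 3 at an unadjusted p under 0.05. For H3K27ac it called 1 of 16 higher (0.931% of all 13217) and 0 lower (1.46%), with 1 at an unadjusted p under 0.05. A region was counted as gained or lost when both lists of one time point had a peak and neither of the other did, and it was not tested, because an exact permutation of 2 lists against 2 has too few arrangements to pass the threshold. By this count 0 H3K4me3 regions were gained (0.456% of all regions) and 1 was lost (3.88%), and 1 H3K27ac region was gained (3.43%) and 2 were lost (4.18%). Leaving out replicate 1 or replicate 2 at 0 h raised the H3K27ac count of gained and lost regions from 3 to 8 and 6, since 1 list then decided. The counts are small, and nothing is read from them about the 10 genes as a set.

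The receptor *Tfrc* (chr16:32608920-32632794, GRCm38, plus strand) had a wide H3K4me3 peak over its start site, from -1.3 to 6.0 kb. It measured 6052 and 5849 bp at 0 h and 5994 and 6907 bp at 24 h, and 5271 to 6907 bp over the 10 lists. The groups at 0 and 24 h overlapped, and the score lay near the middle of each list, with percentiles of 33.9 to 48.5 (the percentage of peaks in the same list that score lower). H3K27ac was listed at this start site in 1 of 10 lists only, replicate 2 at 0 h, as a single peak of 6600 bp. *Tfr2* (chr5:137569840-137587481, plus strand) carried both marks over the same stretch in every list. Its H3K4me3 measured 4669 and 4466 bp at 0 h and 4201 and 3630 bp at 24 h, so both lists at 24 h lay below both at 0 h, and its H3K27ac measured 4940 and 4736 bp against 4593 and 3807 bp. Neither difference was called (limma adjusted p = 0.463 and 0.302). The region also covers exons of the neighbouring *Actl6b*, and the shares of the 2 genes cannot be told apart.

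The reductase *Steap3* (chr1:120190757-120272705, minus strand) was marked mainly at another start site than the one chosen from the annotation. At the chosen site H3K4me3 was listed in 3 of 10 lists, at 1168 bp in replicate 1 at 0 h and at 1459 and 2448 bp at 24 h. It was not called (log2 difference 2.0, limma adjusted p = 0.369), but was called longer without replicate 1 at 0 h (3.39, adjusted p = 0.0235) and with equal numbers of top-scoring peaks (3.39, adjusted p = 0.0209). A downstream start site instead lay within a region marked in all 10 lists, from 4.4 to 9.5 kb inside the gene. That region measured 3942 and 4066 bp at 0 h and 4308 and 4882 bp at 24 h, so both later lists were longer than both earlier ones, without being called (limma adjusted p = 0.35). A second H3K4me3 region, from 10.7 to 15.5 kb, was also in all 10 lists, at 3002 and 3421 bp at 0 h and 4600 and 3715 bp at 24 h (limma adjusted p = 0.268). It covers a *Steap3* start site of RefSeq that is not among the GENCODE start sites used here. Its score percentile was 50.4 and 48.7 at 0 h and 29.2 and 37.3 at 24 h, lower in both later lists and not called (limma adjusted p = 0.129). Neither was matched by H3K27ac in any list. The transporter *Slc11a2* (chr15:100387898-100425072, minus strand) had a wide H3K4me3 peak as well, 5648 and 6429 bp at 0 h and 5538 and 6732 bp at 24 h, with overlapping groups. It covers the start site of *Gm5475* too, and the shares of these cannot be told apart. No list had H3K27ac at this promoter, while 9 of 10 had it at an internal start site, from 17.4 to 23.3 kb, with lengths of 3473 to 5605 bp and low score percentiles of 0.1 to 23.7.

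Mitoferrin, *Slc25a37* (chr14:69241848-69285112, minus strand), had longer peaks of both marks in both lists at 24 h than in either at 0 h. H3K27ac there measured 2201 and 2384 bp before β-estradiol, 2028 and 2537 bp after 2 h, 2852 and 2634 bp after 6 h, 2664 and 2821 bp after 12 h, and 2750 and 2793 bp after 24 h. All 6 lists from 6 h on were above all 4 lists before, though the test of 24 h against 0 h did not call it (log2 difference 0.25, limma adjusted p = 0.239). H3K4me3 measured 2422 and 2563 bp at 0 h and 3347 and 2700 bp at 24 h, without a call (limma adjusted p = 0.377). This promoter was among those the study targeted with guide RNAs. Guides 1 and 3, 242 to 261 and 269 to 288 bp upstream of the start site (chr14:69285354-69285373, minus strand, and chr14:69285381-69285400, plus strand), fell within both regions. They are shown to place the targeted site, with the next 3 genomic bases (the PAM) in capitals.
guide 1: gtctgcaaaactaccgattcTGG
guide 3: aaccagctttagcattccgaAGG

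The exporter *Slc40a1* (chr1:45908068-45926523, minus strand) had the highest median H3K4me3 and H3K27ac score percentiles of the 10 start sites. Its H3K4me3 percentiles were 77.6 to 98.7 and its H3K27ac percentiles 80.2 to 97.2, and its H3K27ac peak was longer than its H3K4me3 peak in every list (4326 to 5240 bp against 3191 to 4081 bp). No difference in length between 0 and 24 h was called for either mark (log2 differences 0.0 for H3K4me3 and 0.03 for H3K27ac, limma adjusted p = 1.0 and 0.865). For H3K27ac the percentiles were 97.2 and 96.9 at 0 h and 90.9 and 92.5 at 24 h, both lower than at 0 h, a difference that was not called (limma adjusted p = 0.367).

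The ferritin heavy chain gene *Fth1* (chr19:9980598-9985098, plus strand) had H3K4me3 from 0.9 to 5.4 kb, over a downstream start site rather than the chosen one, at 4003 to 4336 bp and score percentiles of 70.6 to 87.3. H3K27ac was listed there in 2 of 10 lists, replicate 2 at 0 h (7119 bp) and replicate 2 at 24 h (6857 bp). The light chain gene *Ftl1* (chr7:45457944-45459884, minus strand) had both marks in all lists. H3K4me3 measured 4637 to 5148 bp and H3K27ac 5324 to 6833 bp, where the 0 h lists (6518 and 6142 bp) and the 24 h lists (5714 and 6833 bp) overlapped. *Hmox1* (chr8:75093621-75100589, plus strand) had the lowest median lengths among the start site regions present in all 10 lists, at 1420 to 2599 bp for H3K4me3 and 1534 to 2292 bp for H3K27ac. Its H3K4me3 measured 1839 and 2375 bp before β-estradiol against 1607 and 1834 bp after 24 h, lower in both later lists and not called (limma adjusted p = 0.709), while the H3K27ac groups overlapped. The regulator *Ireb2* (chr9:54863789-54912530, plus strand) had high-scoring peaks of both marks at its start site and no other region in its window. H3K27ac there measured 2367 and 1951 bp at 0 h and 2642 and 2691 bp at 24 h, with both later lists above both earlier ones (log2 difference 0.29, limma adjusted p = 0.131). It was called without replicate 1 at 0 h (log2 difference 0.41, limma adjusted p = 0.0243). H3K4me3 at *Ireb2* measured 2444 to 2720 bp.

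Across these start sites the adjusted p for length ran from 0.35 to 1.0 over 11 H3K4me3 regions and from 0.131 to 1.0 over 9 H3K27ac regions. The adjusted p for score rank ran from 0.632 to 0.998 over 10 H3K4me3 regions and from 0.367 to 0.803 over 6 H3K27ac regions. Before adjustment, p was under 0.05 for length at 3 of the H3K4me3 regions and at 1 of the H3K27ac regions, and for rank at 0 of either. The median log2 difference in length was 0.02 for H3K4me3 and -0.02 for H3K27ac, beside -0.04 and 0.01 over all regions tested. A p that misses the threshold does not show that these start sites did not change.

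**Figure D2:**
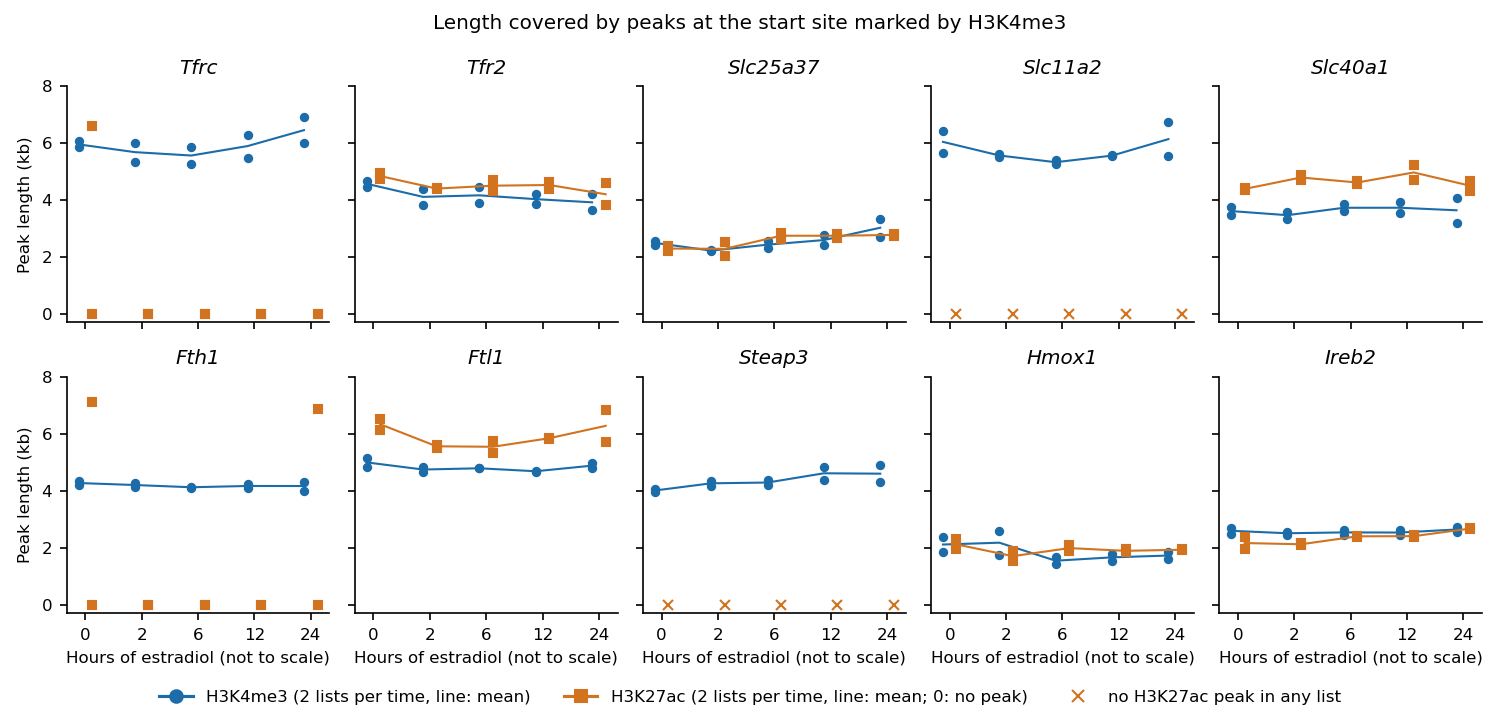
Length covered by peaks (kb) at the H3K4me3-marked start site of each gene, by hours of β-estradiol. Blue circles are H3K4me3 lists and orange squares H3K27ac lists (2 per time, with a line through the means where all 10 lists had a peak), squares at 0 are lists without a peak, and crosses mark genes without H3K27ac in any list. H3K4me3 was present throughout, and H3K27ac was listed in 1 list at *Tfrc*, in 2 at *Fth1*, and in none at *Slc11a2* and *Steap3*.

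The missing H3K27ac at *Tfrc*, *Fth1*, *Steap3*, and *Slc11a2* went with wide H3K4me3 peaks. Mean H3K4me3 length over the 10 lists was 5906 bp at *Tfrc*, 5723 bp at *Slc11a2*, 4350 bp at *Steap3*, and 4181 bp at *Fth1*. Of the 6 genes at 4 kb or more, these 4 had H3K27ac in at most 2 lists, while *Tfr2* (4156 bp) and *Ftl1* (4814 bp) had it in all 10. All 4 genes under 4 kb had it in all 10. In the series as a whole, the share of start sites with little H3K27ac also rose with H3K4me3 width. Of 9401 protein-coding start sites with H3K4me3 in all 10 lists, 88.1% had H3K27ac in all 10 and 5.07% in at most 2. That last share was 3.41% of 7987 sites under 4 kb of H3K4me3, 10.6% of 1214 sites from 4 to 6 kb, and 38% of 200 sites at 6 kb or more. The 4 genes are in the class from 4 to 6 kb, in which most sites had H3K27ac in more than 2 lists. None of the 10 genes reached a mean of 6 kb. Where H3K27ac was listed at *Tfrc* and *Fth1*, it was as single peaks of 6600 to 7119 bp, and peaks of at least 6000 bp were 4.36% of all 179311 H3K27ac peaks. The part of peak width in these missing peaks was not tested, and no loss of acetylation can be read from them.

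**Figure D3:**
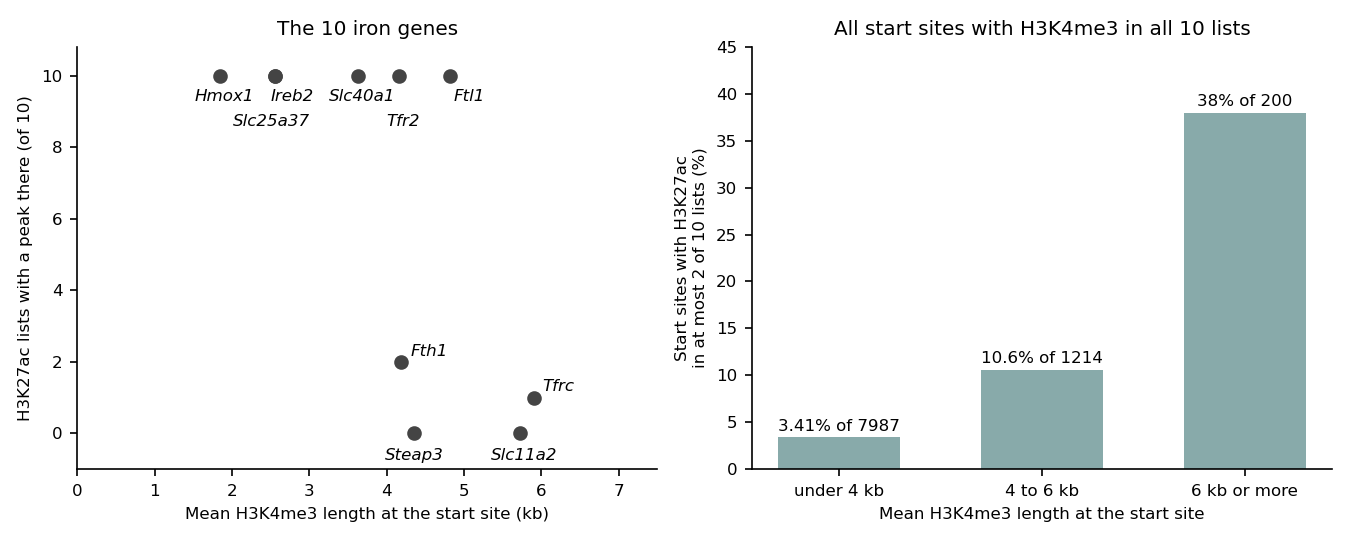
Width of H3K4me3 and presence of H3K27ac. Left, each point is 1 of the 10 genes, with the mean H3K4me3 length (kb) on the x axis and the number of H3K27ac lists with a peak there on the y axis. Right, bars give the percentage of all H3K4me3-marked start sites with H3K27ac in at most 2 lists, which was 3.41% under 4 kb, 10.6% from 4 to 6 kb, and 38% at 6 kb or more.

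The promoters of 2 of these genes, *Tfrc* and *Steap3* (at a marked start site), and of 2 genes with both marks, *Ftl1* and *Ireb2*, are shown for comparison. Each is the 250 bases before the RefSeq start (GRCm38.p6), 5′ to 3′ on the strand of the gene, with CG pairs in capitals. They lie at chr16:32608646-32608895 (plus), chr1:120265287-120265536 (minus), chr7:45459887-45460136 (minus), and chr9:54863505-54863754 (plus).
Tfrc: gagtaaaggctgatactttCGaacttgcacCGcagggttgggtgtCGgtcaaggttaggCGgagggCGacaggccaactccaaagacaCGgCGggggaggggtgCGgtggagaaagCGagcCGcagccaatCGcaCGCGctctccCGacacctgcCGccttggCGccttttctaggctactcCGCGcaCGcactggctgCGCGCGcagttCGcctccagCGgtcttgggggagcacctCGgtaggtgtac
Steap3: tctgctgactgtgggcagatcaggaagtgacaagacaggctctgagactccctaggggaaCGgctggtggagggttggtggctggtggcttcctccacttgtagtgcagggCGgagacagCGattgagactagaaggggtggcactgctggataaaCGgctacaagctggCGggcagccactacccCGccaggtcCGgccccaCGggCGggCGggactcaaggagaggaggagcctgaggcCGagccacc
Ftl1: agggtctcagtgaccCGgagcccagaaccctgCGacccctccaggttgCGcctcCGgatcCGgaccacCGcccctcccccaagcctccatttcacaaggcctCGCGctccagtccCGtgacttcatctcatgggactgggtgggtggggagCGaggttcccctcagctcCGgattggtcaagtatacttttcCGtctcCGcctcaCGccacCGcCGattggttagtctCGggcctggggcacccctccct
Ireb2: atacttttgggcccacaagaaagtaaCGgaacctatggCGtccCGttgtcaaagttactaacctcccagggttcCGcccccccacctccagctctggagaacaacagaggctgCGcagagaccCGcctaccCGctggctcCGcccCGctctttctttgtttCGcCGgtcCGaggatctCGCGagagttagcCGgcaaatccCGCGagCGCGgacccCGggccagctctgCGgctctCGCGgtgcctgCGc
They held 25, 11, 17, and 24 CG pairs, against a median of 6 over all 32851 promoters of the table, so *Tfrc* and *Steap3* did not share a count that set them apart from the others. The RefSeq table had 13 promoters for 6 of the 10 genes (*Tfrc*, *Tfr2*, *Fth1*, *Ftl1*, *Steap3*, and *Ireb2*). It had none for *Slc25a37*, *Slc11a2*, *Slc40a1*, or *Hmox1*, so the promoters of those genes were not searched. The GATA motif (GATA with A or T before it and A or G after it, either strand) was found in 2 of the 13, at *Tfr2* and at the little-marked start site of *Steap3*, and in 26.5% of all promoters. Its pairing with part of an E-box (CTG, then 7 to 9 bases, then a GATA motif that ends in AA, on either strand) was found in 1, at *Tfr2*, and in 1.25% of all. The core of the antioxidant response element (TGACNNNGC) was found in 0 of 13 and in 10.2% of all. A match is a description of the letters and not of binding.

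H3K27ac increased over time in *Steap3*, at a region within an intron (chr1:120229516-120233553) and 37.5 to 41.6 kb downstream of the chosen start site. Its peak measured 1864 and 1723 bp before β-estradiol, 2211 and 2497 bp after 2 h, 3137 and 2872 bp after 6 h, 3808 and 3745 bp after 12 h, and 3817 and 3075 bp after 24 h. Each time point lay above the ones before up to 12 h, with no overlap, and 24 h overlapped 6 and 12 h but neither 0 nor 2 h. The mean length was 1793.5 ± 99.7 bp before β-estradiol and 3446 ± 525 bp after 24 h (SD, n = 2). In limma this was a log2 difference of 0.86 (SE 0.11, adjusted p = 0.00553). The peak grew mainly at the end away from the promoter, which lay at 40.0 and 40.1 kb at 0 h and at 41.3 and 40.9 kb at 24 h, while the near end moved from 38.1 and 38.4 kb to 37.5 and 37.8 kb.

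The score of the same peak rose within its list. Its percentile was 11.9 and 15.5 before β-estradiol, 44.5 and 30.5 after 2 h, 34.8 and 35.6 after 6 h, 44.0 and 41.7 after 12 h, and 48.4 and 46.5 after 24 h. Every later list was above both 0 h lists, already at 2 h. On normal scores of the ranks the difference was 1.53 (SE 0.22, limma adjusted p = 0.0118). The call was lost when single lists were left out. Without replicate 1 at 0 h, replicate 1 at 24 h, or replicate 2 at 24 h the adjusted p was 0.0612, 0.0567, and 0.0586. H3K4me3 was in no list here, and both CTCF lists had a peak inside the region, at score percentiles of 91.8 (0 h) and 93.0 (24 h).

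The union of the 10 peaks held 70 GATA motifs. The median was 7 over 4225 H3K27ac regions of like length (within 20%), which include this one. Only this region itself (0.0237%) held as many. Counting only motifs that overlap no other GATA motif, it held 18, against a median of 7, and 1.37% of like regions held as many. Of the 70, 58 lay in a run of 304 bp at the end nearest to the promoter, 37.5 to 37.8 kb from the start site, where the motif recurs in overlapping copies. The other 12 were spread over the rest. Most single peaks covered little of this run. The peaks held 4 motifs in both lists at 0 h, 7 and 8 after 2 h, 26 and 12 after 6 h, 27 and 58 after 12 h, and 70 and 14 after 24 h, so the replicates differed widely from 6 h on. The GATA and E-box pairing was found 2 times, and 5.96% of like regions held as many, with at least 1 in 29.8%. Shown are the 200 bases with the most GATA motifs (in capitals, either strand) in the part that the peaks of all 10 lists cover (chr1:120231408-120231607, plus strand), since they hold 1 of the 2 pairings and lie outside the run.
Steap3 intron: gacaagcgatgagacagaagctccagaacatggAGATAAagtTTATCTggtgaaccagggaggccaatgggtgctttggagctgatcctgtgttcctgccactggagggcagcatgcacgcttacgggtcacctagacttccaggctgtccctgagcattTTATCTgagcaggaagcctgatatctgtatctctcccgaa

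The H3K27ac region gained in *Slc11a2* (chr15:100389923-100393511) covers UTR and intron sequence in the 3′ part of the gene, 29.5 to 33.1 kb downstream of the chosen start site. No list at 0 or 2 h had a peak in it. Peaks measured 2246 and 3403 bp after 6 h, 2684 and 2118 bp after 12 h, and 3224 and 2773 bp after 24 h, so all 6 later lists had the region and none of the 4 earlier ones. In limma the log2 difference was 4.0 (SE 0.28, adjusted p = 0.000497), a value that depends on the 200 bp added to every length. The peaks scored low, at percentiles of 5.4 to 28.3, and lengths that are either present or 0 depart from the normal errors that limma assumes, so adjusted p for such regions can be too small. Neither H3K4me3 nor CTCF had a peak inside. It held 6 GATA motifs, equal to the median of 6 over 4747 regions of like length. The 200 bases with the most GATA motifs in the part shared by all 6 peaks, outside the UTR (chr15:100391539-100391738, plus strand), are shown with those motifs in capitals, since all later peaks include them.
Slc11a2 3′ part: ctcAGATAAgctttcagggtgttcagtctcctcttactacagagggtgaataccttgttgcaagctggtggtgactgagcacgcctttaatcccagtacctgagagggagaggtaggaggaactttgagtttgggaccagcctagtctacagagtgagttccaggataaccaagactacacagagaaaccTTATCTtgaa

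Upstream of *Fth1*, a small H3K4me3 region (chr19:9967923-9969462, between genes, 11.1 to 12.7 kb before the chosen start site) was lost late. Its peaks measured 1390 and 1099 bp before β-estradiol, 1264 and 1155 bp after 2 h, 1099 and 1063 bp after 6 h, and 1068 and 1092 bp after 12 h, whereas both lists at 24 h lacked one. At 24 h against 0 h the length fell by 2.85 on the log2 scale (SE 0.19, limma adjusted p = 0.000871). Scores were low throughout, at percentiles of 11.0 to 26.2, and the H3K4me3 lists held fewer peaks at 24 h (12925 and 13071) than at 0 h (14014 and 14452). The part of list size and of weak scores in this loss was not tested. H3K27ac covered the interval in 7 of 10 lists, among them replicate 2 at 24 h (1384 bp of it), and was missing from replicate 2 at 0 h, replicate 2 at 2 h, and replicate 1 at 24 h. Both CTCF lists had a peak that overlaps it. The region held 3 GATA motifs, equal to the median of 3 over 2088 H3K4me3 regions of like length. The stretch with most of them in the part that all 8 peaks cover (chr19:9968591-9968790, plus strand) is shown for comparison with the *Steap3* and *Slc11a2* stretches above.
Fth1 upstream: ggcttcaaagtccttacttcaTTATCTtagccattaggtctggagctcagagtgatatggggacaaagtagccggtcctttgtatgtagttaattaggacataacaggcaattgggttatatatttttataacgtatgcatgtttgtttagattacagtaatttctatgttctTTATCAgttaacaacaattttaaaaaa

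**Figure D4:**
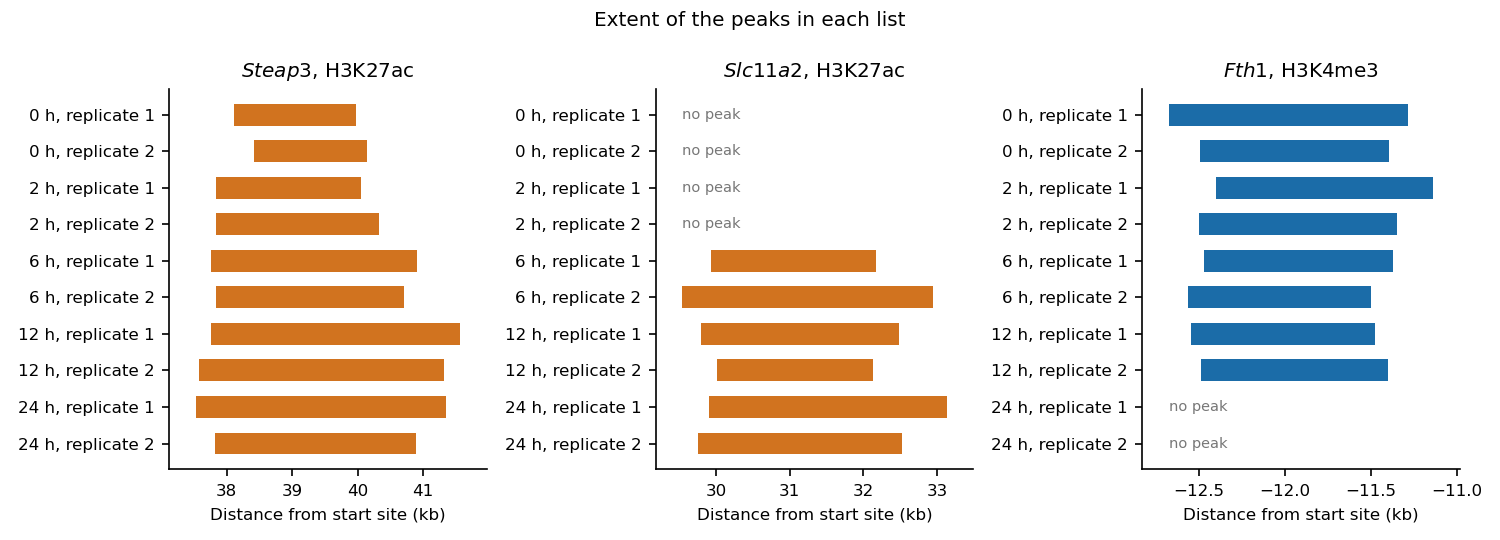
Extent of the peaks in each list at the 3 regions called in the length test. The x axis gives the distance from the chosen start site (kb) and each bar is the peak of 1 list. The *Steap3* peak reached 40.0 and 40.1 kb at 0 h and 41.3 and 40.9 kb at 24 h, the *Slc11a2* peak was in all 6 lists from 6 h on, and the *Fth1* peak was in all 8 lists up to 12 h.

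Another 2 H3K27ac regions were lost by the count of lists, with presence that came and went. One, 10.2 to 11.2 kb upstream of *Tfrc*, was listed at 668 and 725 bp at 0 h, at 982 bp in replicate 2 at 2 h, at 561 and 689 bp at 12 h, and in no list at 6 or 24 h. Its score percentiles were 2.7 to 14.4, and the length test did not call it (limma adjusted p = 0.171). It was called without replicate 1 at 2 h (limma adjusted p = 0.00721) and without replicate 2 at 2 h (0.00666). The other, 14.4 to 16.5 kb downstream of *Ftl1* within *Gys1*, was listed at 1513 and 1331 bp at 0 h, in 1 of 2 lists at 2 h (1523 bp) and at 12 h (1305 bp), in both at 6 h (2011 and 1604 bp), and in neither at 24 h (limma adjusted p = 0.222). With the 0 and 24 h lists alone, both this region and the one upstream of *Tfrc* were called shorter (limma adjusted p = 0.00973 for each).

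Away from the GENCODE start sites, 4 of 9 H3K4me3 regions and 6 of 20 H3K27ac regions were in all 10 lists, and 6 of the H3K27ac regions were in a single list. Of these 9 H3K4me3 regions, 8 overlapped an H3K27ac region, beside 78.8% of all 7587 H3K4me3 regions away from such start sites. Of the 20 H3K27ac regions, 6 overlapped H3K4me3, beside 36.2% of 16023. The H3K4me3 region without overlap was the *Steap3* region from 10.7 to 15.5 kb, which covers a RefSeq start site of the gene. Upstream of *Hmox1*, from -10.5 to -8.2 kb for H3K27ac and from -10.3 to -9.2 kb for H3K4me3, both marks were in all 10 lists, at 1087 to 2316 bp and 686 to 1017 bp. Upstream of *Slc11a2*, from -23.4 to -18.8 kb, H3K27ac was in all 10 lists at 2968 to 4153 bp and enclosed 2 short H3K4me3 regions present in 8 and 9 lists. The second of these (from -22.0 to -20.6 kb) was called shorter without replicate 1 at 24 h (limma adjusted p = 0.00834). Downstream of *Slc40a1*, from 19.5 to 21.6 kb, H3K27ac was in all 10 lists and H3K4me3 in 9, and this H3K4me3 was called shorter without replicate 2 at 24 h (limma adjusted p = 0.0144). Upstream of *Slc25a37*, in an intron of *Gm27223*, H3K27ac was in 1 of 2 lists at 0, 2, 6, and 12 h and in both at 24 h (1078 and 775 bp), and was not called (limma adjusted p = 0.54).

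CTCF peaks in the 10 windows were largely the same at both times. There were 43 at 0 h and 46 at 24 h, where 40 of the 43 overlapped a peak at 24 h and 39 of the 46 overlapped a peak at 0 h. The most lay in the window of *Steap3* (10 and 12), which was also the longest at 121.9 kb. The shortest window, that of *Ftl1* (41.9 kb), had 6 and 6, and the window of *Slc40a1* (58.5 kb) had 0 and 1. With 1 list per time there is no replicate for these counts, and the 24 h list held more peaks in all (41473 against 33193).

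Of 40 other genes of iron metabolism, 39 were matched to the annotation. H3K4me3 was at the start site in all 10 lists at 23 of them and in none at 15, and H3K27ac in all 10 at 22 and in none at 16. At 24 h against 0 h, limma called H3K27ac longer at 2 of 23 start site regions tested and shorter at 1, beside 3.3% and 3.02% of all regions, and H3K4me3 rank higher at 1 of 23, beside 0.417%. It called 0 of 24 H3K4me3 lengths (0.471% longer and 1.11% shorter over all regions) and 0 of 22 H3K27ac ranks (0.931% higher and 1.46% lower), with 4 and 5 at an unadjusted p under 0.05. *Erfe*, which encodes the hormone erythroferrone, had H3K27ac of 1095 and 1239 bp before β-estradiol, 1779 and 1412 bp after 12 h, and 2706 and 2356 bp after 24 h. The log2 difference was 1.0 (SE 0.15, limma adjusted p = 0.00889). Its H3K4me3 score percentile was 47.3 and 54.5 at 0 h and 66.4 and 63.6 at 24 h (normal score difference 0.54, SE 0.1, limma adjusted p = 0.0295). The call was lost without any 1 of 6 lists, the 4 at 0 and 24 h and the 2 at 2 h (differences from 0.44 to 0.63). It was also lost with the 0 and 24 h lists alone (limma adjusted p = 0.139) and with the replicate block (0.0509). *Slc46a1*, a folate transporter that also carries heme, had H3K27ac of 1137 and 974 bp at 0 h, 986 to 1292 bp at 6 and 12 h, and 2835 and 2426 bp at 24 h. The log2 difference was 1.17 (SE 0.14, limma adjusted p = 0.00456). At *Abcb10*, a mitochondrial transporter that binds mitoferrin, H3K27ac was listed as single peaks of 7046 and 7054 bp at 0 h, at low score percentiles of 0.3 and 10.1, and in none of the 8 later lists (fell by 5.18 on the log2 scale, SE 0.28, limma adjusted p = 0.000247). H3K4me3 there was in all 10 lists with a mean of 4950 bp, so *Abcb10* resembled *Tfrc* and *Fth1* in having wide H3K4me3 and H3K27ac in few lists, and the part of peak width was not tested there either.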

How the data were processed

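ChIP-seq of H3K4me3 and H3K27ac was done in G1ER cells at 0, 2, 6, 12, and 24 h of β-estradiol (2 replicates each), and CTCF at 0 and 24 h (1 each). The authors mapped reads with Bowtie2 to mm10, kept unique reads, and called peaks per sample with MACS. The MACS version, control, and threshold, and the CTCF steps, are not given in the sources used here. The deposited lists give each peak's position and a score on the scale of the authors' peak caller, and no read counts, so depth is unknown. Because scores of separate lists share no scale, they were ranked within each list.

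Peaks of the 10 lists of a mark were merged where they touched. A region was placed at a start site when within 500 bp of it (GENCODE, GRCm38), and otherwise elsewhere. For every region that 2 or more lists had a peak in, log2(covered bp + 200) was fitted in limma 3.58.1 (R 4.3.3) with a term per time point. Normal scores of the ranks were fitted likewise for regions in all 10 lists. The Benjamini-Hochberg adjusted p threshold was 0.05, over all regions tested. The script was tested on simulated data. Regions called in a test are named, as are all 10 genes. The 10 genes and the other lists were chosen with earlier results of these data known. The labels do not say that replicates are separate cultures, so p-values measure only the spread between these samples, which may be technical.

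The main fit has no replicate block, since the authors' methods name none. Same-numbered replicates did not deviate together (correlations of -0.127 to 0.0416). Promoter sequences came from RefSeq (GRCm38.p6). Alternatives covered peak scores, pseudocounts, list minimums, merging, scaling, time points, windows, and each replicate left out.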

Additional observations from a re-analysis of the deposited data

How the results depend on the processing

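Of the single regions named with a call, none changed sign under any alternative run, but the split of calls by direction did. H3K27ac lengths went from 2 longer and 0 shorter to 1 and 2 with the 0 and 24 h lists alone, and H3K27ac regions from 1 gained and 2 lost to 2 and 0 with equal numbers of top-scoring peaks and to 3 and 2 when 50% of a region had to be covered. Using equal numbers of top-scoring peaks gave 2 called H3K4me3 lengths in place of 1 and 2 H3K4me3 regions gained or lost in place of 1. Higher-scoring peaks alone (above the pooled median score of their mark) gave 0 called lengths for H3K4me3 and, in place of 2, 0 for H3K27ac, and 0 H3K27ac regions gained or lost in place of 3. All peaks of the regions called, gained, or lost in the windows in the main analysis scored below that median. This setting therefore removed those regions beforehand and could not call them. A straight line over time gave 0 called H3K4me3 lengths. Regions in at least 5 lists gave 1 called H3K4me3 rank in place of 0. It was the lost region upstream of *Fth1* (normal score difference -0.98, limma adjusted p = 0.00932). Lists without a peak were ranked lowest in that setting, so the call restates the loss. The 0 and 24 h lists alone gave 0 called H3K27ac ranks in place of 1. Asking for 50% of a region to be covered gave 2 H3K4me3 and 5 H3K27ac regions gained or lost. With 5 kb on each side the windows held 14 H3K4me3 and 17 H3K27ac regions, and with 50 kb 41 and 55. Apart from these window sizes, the higher-scoring peaks, and the ranks of regions in at least 5 lists, which change what is counted, the cause was not tested.

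With each replicate left out in turn, called lengths ranged from 1 to 2 for H3K4me3 and from 2 to 3 for H3K27ac. Called ranks ranged from 0 to 0 for H3K4me3 and from 0 to 1 for H3K27ac, and regions gained or lost from 1 to 2 and from 3 to 8. The H3K4me3 length count was 2 without replicate 1 at 0 h, replicate 1 at 24 h, or replicate 2 at 24 h. Where a time point then had 1 list, that list was assumed to vary like the others.

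The replicate numbers share only a number across time points. With the replicate block the called lengths were 1 (H3K4me3) and 2 (H3K27ac) and the called ranks 0 and 1, and of the single regions named only the *Erfe* H3K4me3 rank lost its call (adjusted p = 0.0509). The *Slc11a2* length call was lost with equal numbers of top-scoring peaks (limma adjusted p = 0.0856, range 0.000277 to 0.0856). Its log2 difference stayed at 4.0 there, with an SE of 1.04 in place of 0.28. Under that setting another H3K27ac region of *Slc11a2*, 44.0 to 46.1 kb downstream of the chosen start site, was called longer (log2 difference 2.6, limma adjusted p = 0.00553). The main fit did not call it (limma adjusted p = 0.447). The *Fth1*, *Abcb10*, and *Slc46a1* length calls were lost with a straight line over time (limma adjusted p = 0.135, 0.118, and 0.0932). The *Erfe* H3K27ac call was lost with higher-scoring peaks alone (0.237), and the *Erfe* H3K4me3 rank call with the 0 and 24 h lists alone (0.139). The *Steap3* length was lost with the 0 and 24 h lists alone (0.0828, range 0.00419 to 0.0828). Peak lists without read counts limit all of these to where a peak caller drew its edges.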
